A study of Bos taurus with 12 samples.

Results

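The genes described here encode the nuclear subunits of complex III of the mitochondrial respiratory chain, and cytochrome c, the carrier that takes electrons away from it. They were UQCRC1, UQCRC2, UQCRFS1, UQCRB, UQCRH, UQCRQ, UQCR10, UQCR11, CYC1 and CYCS. A probe belonged to one of them when its RefSeq transcript identifier carried that gene's symbol in the reference gene table. Of the 10 genes, 9 had a probe by this rule, with 20 probes among the 43653 probes of the array and 9 genes among 12787 with a probe. UQCRC2 was not analysed here. All 20 probes were well above background on 12 of 12 arrays, so no probe was lost to the filter on dim signals.

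Mammary gland biopsies came from multiparous Holstein cows in midlactation, each sampled in both periods, to ask how the lactating gland responds to a shortage of energy. In the CONT period (day 0) the cows ate a lactation diet freely. In the REST period (day 6) their feed allowance covered 50% of their net energy requirement for lactation. RNA of each biopsy was hybridised to 1 one-colour array, which gave 6 CONT and 6 REST arrays from 6 cows, numbered here 1 to 6. No cows kept on full feed were sampled at day 6, and the biopsies of a cow came from the rear udder on alternating sides, so restriction, elapsed time, side and order of sampling cannot be told apart. The study's methods count 5 Holstein cows after the exclusion of 1 animal with mastitis, but 12 mammary samples on 12 arrays, and the labels name 6 cows, so all 6 were kept and the fits were repeated without each of them.

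Complex III, the cytochrome bc1 complex, takes electrons from reduced ubiquinone and passes them to cytochrome c while it moves protons across the inner mitochondrial membrane. Cytochrome b, which holds a pair of hemes, is encoded in the mitochondrial genome, and all other subunits come from nuclear genes. Cytochrome c carries single electrons on to cytochrome c oxidase, and when it leaks into the cytosol it starts the caspase cascade. Milk synthesis has a high demand for ATP, and the secretory epithelium of the lactating gland is rich in mitochondria.

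Signals are given as log2 of the processed intensity minus the 75th percentile of the same array, so a level of 4 is 4 log2 units above that percentile. Levels of different probes cannot be set against each other. Where a gene had several probes, the brightest tested probe stood for it and the others are given beside it. A change is REST minus CONT from limma with the cow as a block, and a gene was called at a Benjamini-Hochberg adjusted p below 0.1 over all 19403 tested probes. The signal was lower on slide 3, which held cows 5 and 6, than on slides 1 and 2, which held cows 1 to 4. The 75th percentile of intensity was 73.2 to 117 on slide 3 and 252 to 390.0 on the other slides, and both periods of each cow shared a slide.

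Relative to the 75th percentile of the array, transcripts of 7 of the 9 measured genes fell during restriction and 0 rose. The called genes were UQCRFS1, UQCRB, UQCRH, UQCRQ, UQCR10, UQCR11 and CYC1, with falls from 19.0% to 31.3%. UQCRC1 and CYCS were not called, with means 9.94% and 11.5% lower in REST, and their mean differences became positive without scaling or with scaling to spike-in RNA. The 7 calls were 77.8% of the 9 genes, against 9.27% of the 7930 tested genes called lower in the same fit and 6.94% called higher. The median change of the 9 genes was -0.37, against -0.0090 over all tested genes. A lower mean in REST was found in 9 of 9 genes, where 51.6% of all tested genes had one, and a lower level in every cow was found in 7 of 9, where the share of all was 10.8%. When REST and CONT were compared without the cow as a block, 2 of the 9 genes were called, UQCRB (limma adjusted p = 0.0433) and UQCR10 (0.0503), and 2.81% of all tested genes were called lower and 1.59% higher. A biopsy holds all cell types of the gland, so fewer cells of a type and less RNA per cell cannot be told apart.

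**Figure D1:**
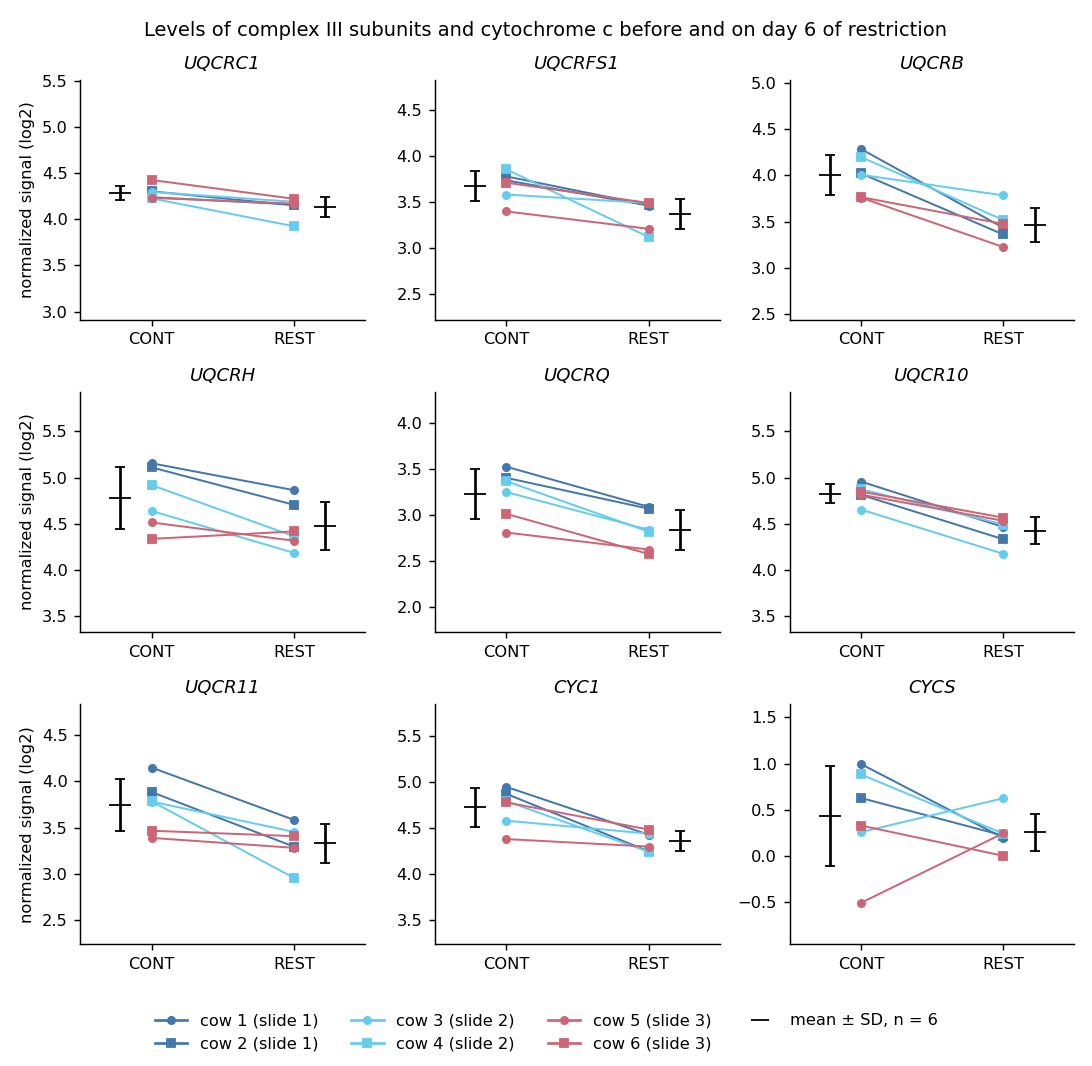
Normalized signal (log2, relative to the 75th percentile of the array) of the brightest probe of each gene in CONT (day 0) and REST (day 6). Each line is 1 cow, coloured by slide, and the bars give the mean and SD of the 6 arrays of a period; every panel spans the same number of log2 units. The CONT and REST levels are fully apart for UQCRC1 and UQCR10, and the lines of cows 3 and 5 slope upward for CYCS.

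UQCRC1 encodes core protein 1, one of a pair of large matrix-facing subunits that resemble mitochondrial processing peptidase. Its level was 4.23 at the lowest, 4.27 at the median and 4.42 at the highest in CONT, and 3.92, 4.16 and 4.22 in REST. Every REST array lay below every CONT array, although the ranges nearly met, and the lowest REST array was that of cow 4. The change was -0.15 (SE 0.074, limma with the cow as a block, adjusted p = 0.221), with a 95% confidence interval from -0.32 to 0.02, and it was negative in 6 of 6 cows. Such a separation was found in 1.66% of all tested genes and in 2 of the 9 genes here, UQCRC1 and UQCR10. The cows differed little in the size of their change, with an SD of 0.090, and 97.8% of tested probes had an SD as large. A paired test without moderation, which uses that SD alone, gave an adjusted p of 0.0989 over all probes. Of the other UQCRC1 probes, 1 was called, at -0.22 (adjusted p = 0.0951), and the remaining ones stood at -0.15 and -0.12.

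CYC1 encodes cytochrome c1, the heme protein that hands electrons to cytochrome c. Its CONT level ran from 4.38 through a median of 4.78 to 4.95, and its REST level from 4.24 through 4.36 to 4.48. The CONT array of cow 5 lay within the REST range, and the other CONT arrays lay above it. CYC1 fell by 0.37 (SE 0.098, adjusted p = 0.0544), or 22.5%, and was lower in 6 of 6 cows. Its other probes fell by 0.46 (adjusted p = 0.0280) and 0.44 (adjusted p = 0.0336), and for the first of these the CONT and REST arrays did not overlap. All 3 probes of CYC1 were called. Its brightest probe was not called without cow 1, 2 or 4 (adjusted p = 0.132 to 0.158).

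UQCRFS1 encodes the Rieske protein, whose iron-sulfur cluster receives the first electron from ubiquinol. Its level was 3.40, 3.72 and 3.85 (lowest, median and highest) in CONT and 3.12, 3.46 and 3.49 in REST. The CONT array of cow 5 lay within the REST range, and the other CONT arrays lay above it. UQCRFS1 fell by 0.30 (SE 0.097, adjusted p = 0.0880), or 19.0%. The fall was 0.73 in cow 4 and between 0.09 and 0.31 in the other cows. The other probes of UQCRFS1 had changes of -0.34 (adjusted p = 0.102) and -0.23 (adjusted p = 0.220), and neither was called. The call of UQCRFS1 was lost with a median shift (adjusted p = 0.110), with quantile normalization (0.115), in the paired test without moderation (0.139) and without any 1 of the cows other than cow 5 (0.102 to 0.201).

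UQCRB, a small matrix-side subunit that binds near the ubiquinone site of cytochrome b, had the lowest change of the 9 genes. Its level was 3.76, 4.02 and 4.29 (lowest, median and highest) in CONT and 3.22, 3.45 and 3.78 in REST. The ranges met only at their edge: the REST array of cow 3 was above the CONT arrays of cows 5 and 6. UQCRB fell by 0.54 (SE 0.10, adjusted p = 0.0212), or 31.3% with a 95% confidence interval from 19.4% to 41.4%. The change was -0.85 in cow 1 and -0.22 in cow 3, with the other cows between them. Its other probe fell by 0.45 (adjusted p = 0.0337). UQCRB was also the 1 gene of the 9 whose unscaled intensity was lower in REST in 6 of 6 cows.

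UQCRH, the acidic hinge protein that sits at the contact of cytochrome c1 with cytochrome c, had a single probe. Its level was 4.34, 4.78 and 5.16 in CONT and 4.19, 4.39 and 4.86 in REST, with wide overlap between the periods. Cows 1 and 2 were the highest in both periods. UQCRH fell by 0.30 (SE 0.097, adjusted p = 0.0887), or 19.0%, and was lower in 5 of 6 cows. With the cow as a random block UQCRH was not called (adjusted p = 0.108) and 6 of the 9 genes were. In cow 6 the change was 0.08. Without cow 6 the change was -0.38 (adjusted p = 0.0506), and without each of the other cows the adjusted p was between 0.101 and 0.223.

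UQCRQ encodes a small subunit bound to cytochrome b. The level of its bright probe was 2.81, 3.31 and 3.52 in CONT and 2.58, 2.83 and 3.09 in REST, and the CONT arrays of cows 5 and 6 lay within the REST range. By this probe UQCRQ fell by 0.39 (SE 0.078, adjusted p = 0.0251), or 23.7%, in 6 of 6 cows. The second UQCRQ probe had a change of 0.15 (adjusted p = 0.498), with 3 cows lower and 3 higher. It was dim, at 29.2 to 81.3 intensity units on slide 3 and 192 to 321 on the other slides, and its positive mean came mostly from cow 5 (from -0.86 to -0.52) and cow 6 (from -1.32 to -0.52). The first probe had the lower change in 6 of 6 cows, by 0.54 on average. An exact sign-flip test over the cows gave the smallest p that 6 pairs allow, 0.03125, which was 0.25 after adjustment over the 16 pairs of probes of the same gene. With the mean of both probes UQCRQ was not called (adjusted p = 0.416).

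UQCR10 encodes a subunit next to cytochrome c1. Its level was 4.65, 4.83 and 4.96 in CONT and 4.17, 4.48 and 4.57 in REST. No REST array reached the lowest CONT array. UQCR10 fell by 0.40 (SE 0.075, adjusted p = 0.0211), or 24.2%, and the change lay between -0.49 and -0.28 in all 6 cows. Its second probe fell by 0.36 (adjusted p = 0.0224). The SD of the cow changes of UQCR10 was 0.099, and 96.7% of tested probes had an SD as large.

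UQCR11, one of the smallest subunits, had a single probe. Its level was 3.39, 3.78 and 4.15 in CONT and 2.95, 3.35 and 3.58 in REST. The CONT arrays of cows 5 and 6 lay within the REST range. UQCR11 fell by 0.41 (SE 0.12, adjusted p = 0.0611), or 25.0%. The change was -0.83 in cow 4, -0.59 in cow 2 and -0.57 in cow 1, but -0.11 and -0.06 in cows 5 and 6. UQCR11 was not called without any 1 of cows 1 to 4 (adjusted p = 0.102 to 0.169).

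CYCS encodes cytochrome c. Its level in CONT was 0.996, 0.63, 0.26, 0.88, -0.51 and 0.33 in cows 1 to 6, and in REST it was 0.20, 0.22, 0.62, 0.24, 0.25 and 0.00. The CONT arrays spanned the whole REST range. The change was -0.18 (SE 0.20, adjusted p = 0.60), with a 95% confidence interval from -0.63 to 0.27, and it was negative in 4 of 6 cows. It was -0.80 in cow 1 and 0.75 in cow 5. The SD of the cow changes was 0.607, against a median of 0.261 over all tested probes, and 6.25% of tested probes had an SD as large. The second CYCS probe had a change of -0.18 (adjusted p = 0.639). Its REST level was also above its CONT level in cows 3 and 5, and in cow 6 it was -1.56 in CONT and -1.14 in REST. Both probes were dim on slide 3, with intensities of 60.2 to 139 and 20.1 to 40.4.

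**Figure D2:**
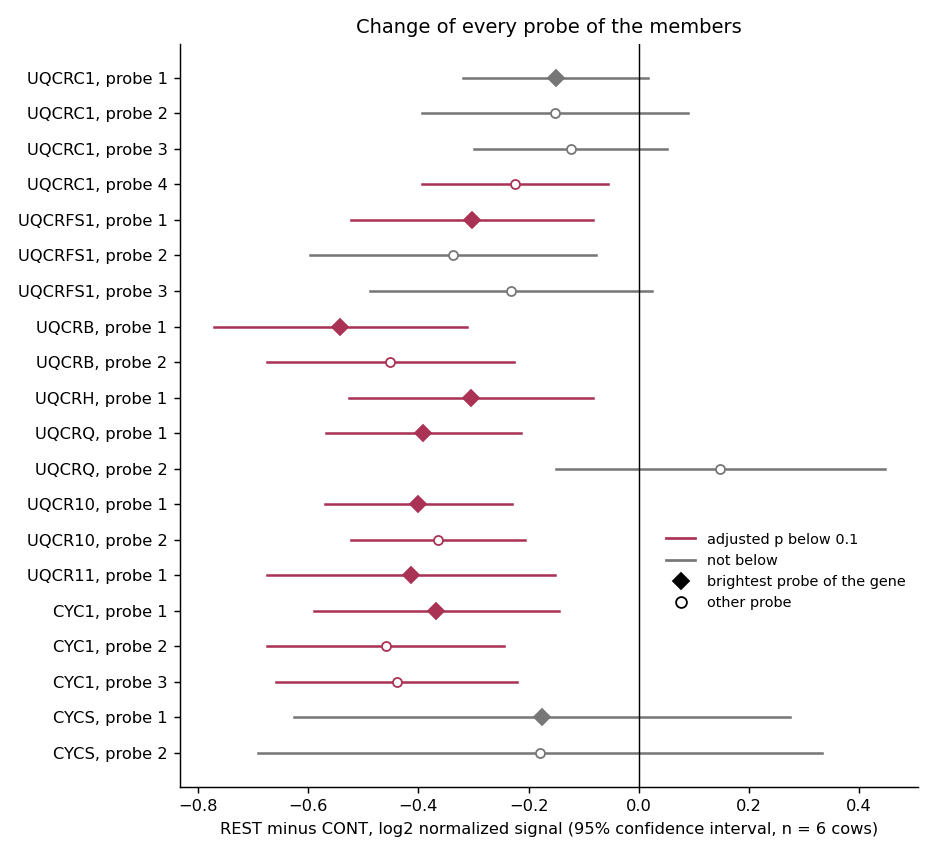
Change from CONT to REST (log2 normalized signal) of each of the 20 probes, with its 95% confidence interval from limma with the cow as a block (n = 6 cows). Of the 20 probes, 12 had an adjusted p below 0.1 and 19 had a negative mean change; the second UQCRQ probe is the exception, and the UQCRC1 and CYCS means became positive without scaling or with spike-in scaling.

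Over all 20 probes, 12 were called lower and 0 higher, against 8.78% of all tested probes called lower and 7.22% called higher. Without the cow as a block, 5 of the 20 probes were called lower, against 2.73% of all called lower and 1.58% higher. The mean was lower in REST for 19 of 20 probes and the level was lower in every cow for 13 of 20, against 49.7% and 9.78% of all tested probes. The CONT and REST arrays did not overlap for 3 of the 20, against 1.5% of all. These were a probe each of UQCRC1, UQCR10 and CYC1. Probes of a gene read the same transcripts and are not independent.

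The genes were also compared with each other within cows. Of 36 pairs of genes, 0 differed in their change at an adjusted p below 0.1 by an exact sign-flip test over the 6 cows. The smallest p that 6 pairs allow, 0.03125, is 0.281 after adjustment over the 36 pairs, and 4 pairs reached it. In all 4, UQCRC1 was the gene with the change nearer to 0. Its change was higher than that of UQCRB by 0.39 ± 0.26 (SD, n = 6), of UQCR10 by 0.25, of UQCRQ by 0.24 and of CYC1 by 0.22, in 6 of 6 cows each. The test cannot show that these genes changed alike.

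By cow, the median change of the 9 genes was -0.49, -0.41, -0.22, -0.55, -0.18 and -0.28 for cows 1 to 6. All 9 genes were lower in REST in cows 1, 2 and 4, and 8 of 9 were lower in cows 3, 5 and 6. The exceptions were CYCS in cows 3 and 5 and UQCRH in cow 6. The mean of the cow medians was -0.45 on slide 1, -0.39 on slide 2 and -0.23 on slide 3. With the slide as a block in place of the cow, 6 of the 9 genes were called, and UQCRFS1 was not (adjusted p = 0.111). That fit called 5.67% of all tested probes lower and 4.11% higher.

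**Figure D3:**
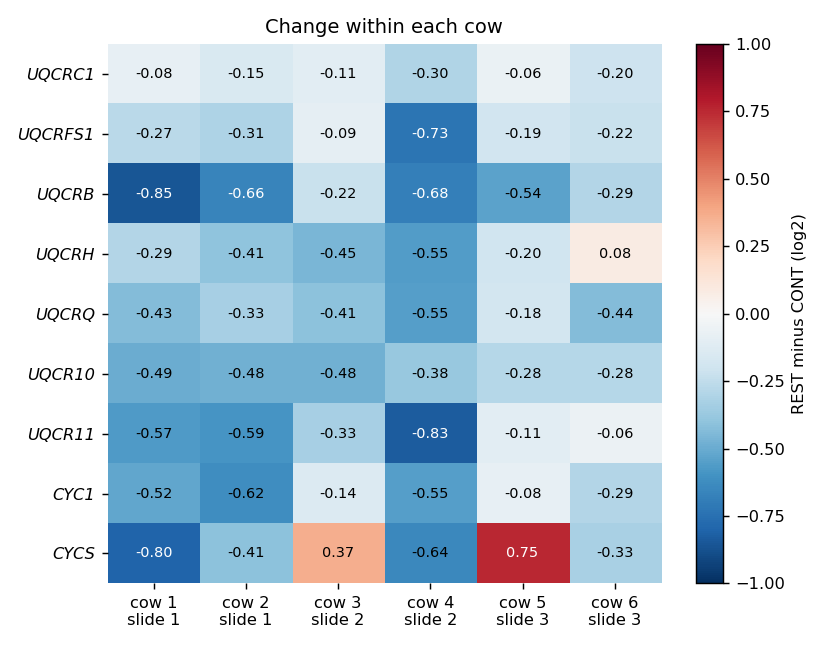
Change from CONT to REST (log2 normalized signal) within each cow, for the brightest probe of each gene; blue is lower in REST and red is higher. All but 3 of the cells are negative, the exceptions being CYCS in cows 3 and 5 and UQCRH in cow 6; without scaling the means of UQCRC1 and CYCS were positive.

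The size of these changes, and for UQCRC1 and CYCS their direction, depended on what the arrays were scaled to. Within each cow the REST array was the brighter one before scaling, and its 75th percentile was higher by 0.30 ± 0.096 (SD, n = 6) log2 units. The spike-in RNA added at labelling differed by 0.034 ± 0.456 between the arrays of a cow, and was higher in REST in 4 of 6 cows. With no scaling, the median change of all tested probes was 0.30 and that of the 9 genes was -0.07. Only UQCRB was then called among the 9 (adjusted p = 0.0706), and UQCRC1 (0.15) and CYCS (0.12) were positive. With scaling to the spike-in RNA, the medians were 0.26 and -0.10, and UQCRC1 (0.11) and CYCS (0.09) were positive. Of the 9 genes, 0 were then called by limma or had an unadjusted p below 0.05. Of all tested probes, 0.856% were called lower and 11.2% higher with spike-in scaling, and 2.06% and 58.4% with no scaling. These scalings move all probes of an array alike, so the distance of the 9 genes from the median of all probes, 0.37 at their own median, is the same by construction. With normexp background correction and the 75th percentile shift, which can alter it, the distance was 0.23, and 8 of 9 genes lay below the median of all probes. A fall is stated here only relative to the other transcripts on the array. Total RNA per cell was not measured.

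**Figure D4:**
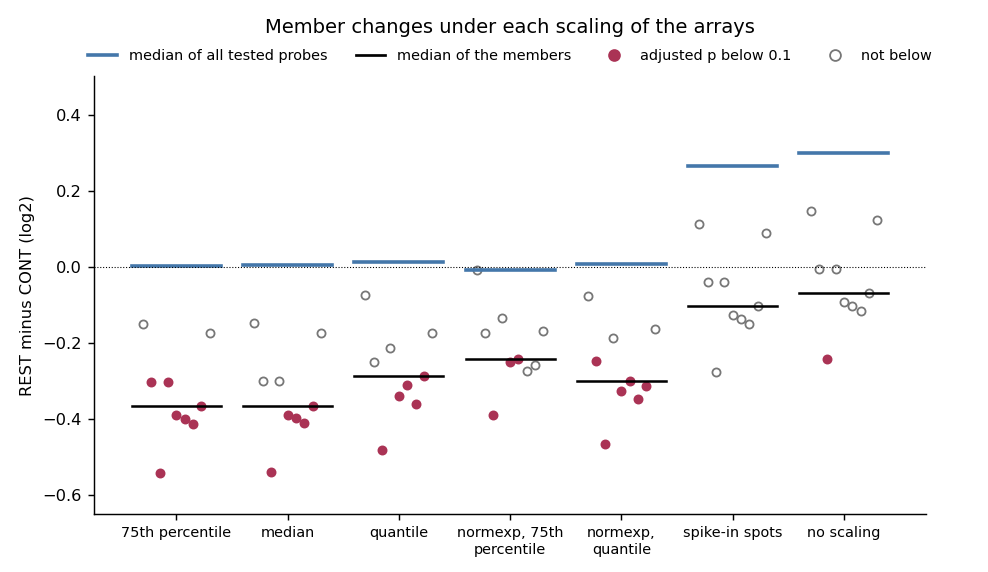
Change from CONT to REST (log2) of the 9 genes under 7 ways of scaling or background correction of the arrays; points are genes, black lines their median and blue lines the median of all tested probes. The black line lies below the blue line throughout, by construction at the same distance under shifts of whole arrays, while UQCRC1 and CYCS are above 0 with spike-in scaling or no scaling.

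Genes around complex III were described by lists, each by its counts and its median, beside the 9.27% of all tested genes called lower and the 6.94% called higher. Complex I feeds ubiquinol to complex III, and 26 of its 37 tested nuclear subunits fell and 0 rose, with a median of -0.30. NDUFS4 (-0.53), NDUFB2 (-0.50) and NDUFV1 (-0.44) had the lowest changes among them. Cytochrome c oxidase takes the electrons of cytochrome c, and 7 of its 12 tested nuclear subunits fell, with a median of -0.29. COX7A2 (-0.58), COX6B1 (-0.49) and COX7B (-0.45) were lowest. Of 15 ATP synthase subunits, 10 fell, with a median of -0.29, among them ATP5MC1 (-0.56), ATP5ME (-0.43) and ATP5PF (-0.42). Without the cow as a block these lists held 10, 4 and 5 called genes, where 2.81% of all tested genes were called lower and 1.59% higher. With normexp and the 75th percentile shift 10, 2 and 3 of their genes were called lower, with medians of -0.18, -0.18 and -0.16. In the normexp fit 8.72% of all tested probes were called lower and 10.2% higher. With no scaling, where the median of all probes was 0.30, their medians were -0.00027, 0.01 and 0.0029, against -0.07 for complex III and cytochrome c. Nearly all of their calls were then lost: complex I had 1 gene called lower and 1 higher, cytochrome c oxidase 1 and 2, and ATP synthase 0 and 2. In that fit 58.4% of all tested probes were called higher and 2.06% lower. With spike-in scaling, limma called 0 genes of these 3 lists, where 0.856% of all tested probes were called lower and 11.2% higher. There 2 genes, both of cytochrome c oxidase, had an unadjusted p below 0.05, counted over both directions. Of the 12 tested cytochrome c oxidase genes, 5 had a higher mean with spike-in scaling and 2 with the 75th percentile shift.

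Of 11 tested genes of other dehydrogenases that reduce ubiquinone, 2 fell, with a median of -0.11. They were SDHA, the flavoprotein of complex II (-0.58, SE 0.098, adjusted p = 0.0168), and ETFA, a subunit of the electron transfer flavoprotein of fatty acid oxidation (-0.45, SE 0.11, adjusted p = 0.0424). The other complex II subunits were not called, with -0.23 for SDHC (adjusted p = 0.104), -0.12 for SDHD and -0.11 for SDHB. With no scaling, where 58.4% of all tested probes were called higher, 1 of the 11 dehydrogenase genes was called lower and 4 higher. With spike-in scaling 0 were called by limma and 9 had a higher mean. Of 9 tested genes of coenzyme Q synthesis, 1 fell, COQ9 (-0.26, adjusted p = 0.0662), a lipid-binding protein of that pathway whose change was positive without scaling (0.0413) or with spike-in scaling (0.0071), and the list median was -0.19.

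Of 7 tested assembly factors of complex III, UQCC6 fell (-0.27, adjusted p = 0.0598; 0.0292 without scaling) and UQCC3 rose (0.23, adjusted p = 0.0988), each in 6 of 6 cows, and the median was -0.15. UQCC3 was not called with a median shift (adjusted p = 0.119) or when any 1 of the 6 cows was left out (0.107 to 0.235). With no scaling all 7 changes were positive. BCS1L, which inserts the Rieske protein, had a change of -0.23 (adjusted p = 0.275), and HCCS, which attaches heme to cytochrome c and cytochrome c1, had a change of -0.07 (adjusted p = 0.680). Of 12 tested genes of iron-sulfur cluster and heme synthesis, 0 were called by limma in either direction, 2 had an unadjusted p below 0.05, and the median was 0.00. The presequence peptidase subunit PMPCA fell (-0.34, adjusted p = 0.0467), 1 of 3 tested peptidase genes, whose median was -0.29. Sulfite oxidase (SUOX), which also gives its electrons to cytochrome c, fell by 0.52 (SE 0.11, adjusted p = 0.0310) in 6 of 6 cows. Its list, of enzymes that pass electrons to cytochrome c together with CHCHD4, held 3 tested genes with a median of -0.21. The others, GFER (-0.08, adjusted p = 0.703) and CHCHD4 (-0.21, adjusted p = 0.211), were not called.

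Among 11 tested genes of the apoptosis pathway that cytochrome c triggers, 1 was called: BID, which promotes the release of cytochrome c, fell by 0.28 (adjusted p = 0.0688), though its change was 0.0195 without scaling. The list median was -0.02, and APAF1, the cytosolic partner of cytochrome c, had a change of -0.15 (adjusted p = 0.443). Among 10 tested regulators of nuclear mitochondrial genes, 1 was called: ESRRA, a nuclear receptor that activates genes of oxidative metabolism, rose by 0.42 (SE 0.11, adjusted p = 0.0497) in 6 of 6 cows, and the list median was -0.06. ESRRA was not called by limma without cow 1, 2 or 4 (adjusted p = 0.112 to 0.134) or with the slide as a block (0.108). Nor was it called in the paired test without moderation (adjusted p = 0.1105). Its coactivator PPARGC1A, named here after its value was seen, had a change of -0.85 (SE 0.30, adjusted p = 0.108). With a median shift the list of regulators held 1 gene called lower and 1 higher. With normexp and the 75th percentile shift it held 1 and 2, and with spike-in scaling 1 and 1. Of 13 mitochondrial genes outside the respiratory chain, 1 was called, citrate synthase (CS, -0.28, adjusted p = 0.0770, and 0.0196 without scaling), and the median was -0.01.

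**Figure D5:**
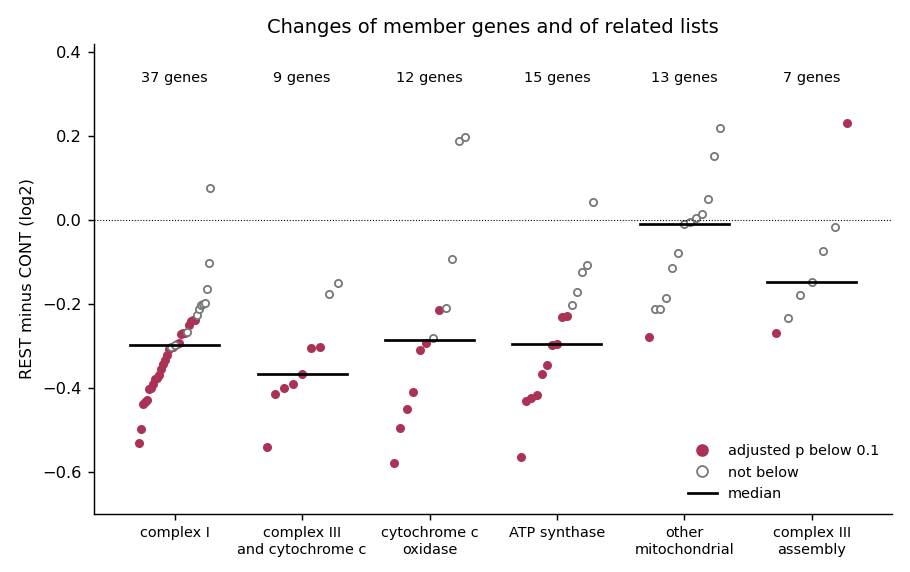
Change from CONT to REST (log2, relative to the 75th percentile of the array) of each tested gene, by list; filled points had an adjusted p below 0.1 (limma with the cow as a block) and lines are medians. Medians lie between -0.37 and -0.29 for the 4 respiratory chain lists, at -0.15 for complex III assembly and at -0.01 for other mitochondrial genes; with no scaling, changes were positive for 18 of 37, 2 of 9, 7 of 12, 8 of 15, 13 of 13 and 7 of 7 genes of the lists from left to right.

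The 5 genes outside the list whose levels most resembled the mean level of the 9 genes, over the 12 arrays and among 7920 genes, were NDUFA11 (Pearson r = 0.979), ATP5MK (0.976), NDUFA4 (0.967), GPR12 (0.960) and NDUFA6 (0.959). NDUFA11 and NDUFA6 are complex I subunits, ATP5MK is a small ATP synthase subunit, NDUFA4 is a subunit of cytochrome c oxidase and GPR12 is an orphan receptor. These arrays share cows, slides and the difference between periods, so the correlations are descriptions. Within the list, the correlation of a gene with the mean of the others ranged from 0.49 for UQCRC1, 0.61 for CYCS and 0.63 for UQCR10 to 0.92 for CYC1.

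Markers of the cell types of a biopsy were read beside these results. The milk protein genes CSN1S1, CSN1S2, CSN3, LALBA and PAEP were well above background on all 12 arrays. Of 10 tested markers of luminal secretory epithelium, CSN1S1 (-0.26) and CSN3 (-0.28) fell and KRT8 (0.72) and KRT18 (0.52) rose, but without scaling CSN1S1 (0.04) and CSN3 (0.02) were positive. With quantile normalization CSN1S1 (-0.09, adjusted p = 0.438) and CSN3 (-0.07, 0.562) were not called, nor were they with normexp and the 75th percentile shift (-0.12 and -0.10). The uncalled ones were CSN1S2 (-0.18), LALBA (-0.20), PAEP (-0.17), ELF5 (-0.05), KRT19 (0.12) and EPCAM (0.33), so 6 of the 10 had lower means, and 3 of the 10 with quantile normalization. The summed linear level of the 10 markers, in multiples of the 75th percentile, was 4492 to 5685 in CONT and 3692 to 4735 in REST, and it was lower in REST in 6 of 6 cows. Nearly all of it came from the 5 milk protein probes. The sum of the other 5 luminal markers was 229.5 to 319.8 in CONT and 252.1 to 331.8 in REST, and it was higher in REST in 4 of 6 cows. Of 5 endothelial markers VWF rose (0.54), PECAM1 (0.32), TEK (0.13), CDH5 (0.03) and KDR (-0.15) were not called, and the summed level was 8.43 to 11.4 in CONT and 10.2 to 12.5 in REST, higher in 6 of 6 cows. Of 6 tested leukocyte markers CD8A (0.45) and CD3E (0.35) rose, while the other 4 were not called and 3 of these, PTPRC (-0.15), CD4 (-0.22) and CD14 (-0.09), had lower means. With normexp and the 75th percentile shift CD8A was not called (0.15, adjusted p = 0.357). The sums of the leukocyte markers were 14.1 to 18.5 in CONT and 14.3 to 16.8 in REST, higher in REST in 1 of 6 cows. Of 5 myoepithelial markers ACTA2 fell (-0.38), KRT14 (-0.17), KRT5 (0.25), OXTR (0.17) and MYLK (0.04) were not called, and the sums were 71.9 to 134 and 61.3 to 124, lower in REST in 5 of 6 cows. ACTA2 was not called with quantile normalization (adjusted p = 0.139) or with normexp and the 75th percentile shift (0.191). Of 6 fibroblast markers 0 were called by limma, with 2 at an unadjusted p below 0.05. Their median change was -0.36, near that of the complex III genes, with COL1A1 at -0.54, COL3A1 at -0.48, LUM at -0.41, COL1A2 at -0.31, PDGFRA at 0.18 and DCN at 0.32. Their sums were 34.2 to 63.9 and 26.4 to 73.5, higher in REST in 3 of 6 cows. Of 2 tested muscle markers CKM fell (-0.36) and ACTA1 was not called (0.02), with sums of 2.05 to 3.73 and 1.72 to 2.94, higher in REST in 1 of 6 cows. The 1 tested red cell marker, HBA, was not called (-0.33, adjusted p = 0.108), with levels of 13.6 to 19.9 and 10.3 to 20.3, higher in REST in 1 of 6 cows. Of the 3 adipocyte markers with a probe none was tested: PLIN1 was well above background on 0 arrays, LEP on 4 and CIDEC on 8. TP63, MS4A1, ITGAM, ALAS2 and MYH1 were also well above background on 0 arrays. Without the cow as a block VWF was the only marker called (adjusted p = 0.0541), and the adjusted p of the other 8 called markers was between 0.133 and 0.508. The part of a change in cell makeup in the falls of the complex III genes was not tested.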

How the data were processed

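Mammary RNA of 6 cows was measured on 12 one-colour (Cy3) bovine arrays, printed 4 to a slide. Each spot of the deposited scanner files has an intensity on a linear scale that the authors obtained with Agilent Feature Extraction 11, background-subtracted and not scaled between arrays. The series table matched this intensity in 542640 of 542640 cells. Control spots and outlier-flagged spots were left out, repeat spots of a probe were averaged, and log2 values were shifted by the 75th percentile of each array, as in the study's methods. Symbols came from a reference gene table (RefSeq) through transcript identifiers, for 27131 of 43653 probes (62.2%). Probe sequences and genome positions are not used here.

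A probe was tested when well above background on every array of at least 1 period. REST was compared with CONT in limma 3.58.1 (R 4.3.3; lmFit, eBayes) with the cow as a fixed block, two-sided, adjusted by Benjamini-Hochberg over 19403 probes, threshold 0.1. The labels name the animal of each array. Deviations from the period means correlated at r = 0.356 to 0.574 between the arrays of a cow and at -0.326 to 0.135 between cows. Differences between genes and between probes were tested by exact sign flips over cows. Scripts ran in Python 3.11.15 with pandas 2.3.3 and matplotlib 3.10.9, and the fit was tested on simulated data.

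The genes, the lists and the alternatives were chosen with earlier results of these data known. Named were all members with every probe, at most 3 called genes of each list by absolute change, the 5 genes most correlated with the members, and the markers. Uncalled genes with a stated role beside the complex were picked for that role, with their values known. The alternatives were other scalings and background corrections, other filters, other treatments of the cow and slide, another test, the mean of all probes of a gene, and each cow left out. Arrays give no counts, so their number limits the precision, and cross-hybridisation was not tested.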

Additional observations from a re-analysis of the deposited data

Results flagged for a closer look

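The REST level of UQCRC1 in cow 4 (3.92) stood apart from the other REST arrays (4.15 to 4.22), with a gap of 0.761 of the range of the 6 arrays, above Dixon's 95% critical value for 6 samples. Of 20 groups of 6 arrays examined in this way, 1 was set apart, and chance alone gives about 1 in 20. Without cow 4 the change of UQCRC1 was -0.12 (limma adjusted p = 0.432), against -0.15 (adjusted p = 0.221) with all cows.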

How the results depend on the processing

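The number of the 9 genes called lower was 7, and of the 20 probes 12. Without the cow as a block (no pairing of the arrays by animal) it was 2 genes and 5 probes, with normexp background correction and the 75th percentile shift 3 and 6, with no scaling 1 and 1, with scaling to spike-in RNA 0 and 0, and without the filter on dim probes 0 and 0. In that last case 43653 probes shared the adjustment, 388 were called in all, 7 of the 9 genes had an unadjusted p below 0.05, and the lowest adjusted p among the 9 was 0.110 (UQCRB, limma). The paired test without moderation called 4 genes. Of all tested probes, 2.73% were called lower and 1.58% higher without the cow as a block. With normexp and the 75th percentile shift the shares were 8.72% and 10.2%, with no scaling 2.06% and 58.4%, and with spike-in scaling 0.856% and 11.2%. Without the filter they were 0.534% and 0.355%, and in the unmoderated test 5.73% and 3.82%. Leaving out a cow gave 3 to 6 genes and 6 to 11 probes: 3 genes without cow 1, 2 or 4, 4 without cow 3, and 6 without cow 5 or 6. Of all tested probes, 8.78% were called lower with every cow, 4.20% without cow 1, 3.03% without cow 2, 6.30% without cow 3, 3.50% without cow 4, 9.24% without cow 5 and 7.99% without cow 6. UQCRB, UQCRQ and UQCR10 were called in each of these 6 fits. The median change of the 9 genes was -0.0702 with no scaling and -0.10 with spike-in scaling, and between -0.42 and -0.24 under the other alternatives. Among the members and the called genes of the lists that are named, the change became positive with no scaling for UQCRC1 (0.15), CYCS (0.12), UQCC6 (0.0292), COQ9 (0.0413), BID (0.0195), CS (0.0196) and NDUFA6 (0.0041). Uncalled genes of the lists and the caseins turned too. With no scaling all 7 assembly and all 11 apoptosis genes were positive, of which 1 and 5 were already positive with the 75th percentile shift. Among the members and the named called genes, the change became positive with spike-in scaling for UQCRC1 (0.11), CYCS (0.0871) and COQ9 (0.0071). Of 161 combinations of the 7 called genes with 23 alternatives, 101 kept direction and call and 60 kept direction and lost the call. Of 46 combinations for UQCRC1 and CYCS, 41 stayed negative and uncalled, 1 was called (UQCRC1, the unmoderated test) and 4 turned direction. The causes were not tested. Without the cow as a block, UQCC6, UQCC3, COQ9, ETFA, BID, ESRRA, CS and NDUFA6 were not called, nor were 8 of the 9 called markers. On slide 3 the dim probes of CYCS and UQCRQ lay closest to background, which limits what can be read from cows 5 and 6.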
